A study of Mus musculus with 8 samples.

Results

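The genes described here build and run motile cilia, the beating hairs of ependymal cells that line the brain ventricles. Of the 47 names in the list, 42 were found among the 13937 genes of the count table, and all 42 were tested. The members were chosen from the known function of their products with earlier results of these libraries in view, in which cilium genes fell after TGF-β, so their falls after TGF-β are given below as a description and not as a test. DNAI1 and DNAI2 are newer symbols of DNAIC1 and DNAIC2, which leaves 45 distinct genes. SPAG6 and TEKT2 had values only in the table of FPKM, a measure of fragments that allows for the length of the transcript, and DNAH7A was not analysed here.

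A motile cilium has a core of microtubule doublets, the axoneme, on which dynein arms slide one doublet against the next. Radial spokes, nexin links and a central pair of microtubules shape the beat, and tektins are filaments inside the doublet wall. Intraflagellar transport carries these parts along the shaft and serves the immotile primary cilium of most cells as well. The transcription factor FOXJ1 together with RFX2 and RFX3 switches on the motile genes, and in multiciliated cells CCNO helps to multiply the centrioles from which the cilia grow. Multiciliated ependymal cells arise from the same radial glia that give rise to astrocytes.

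The libraries came from primary astrocytes of the brains of C57BL/6 mouse pups at postnatal day 1. The cells were wild type (WT) or lacked RGC-32, a protein encoded by Rgcc that takes part in TGF-β signalling, in mice with the gene knocked out (KO), and all were starved of serum overnight. Either genotype was kept without treatment (control) or exposed for 24 h to TGF-β (10 ng/ml). There were 8 libraries, 2 biological replicates for each of the 4 combinations, and nothing further says how separate the cultures were. The meninges had been removed at dissection, the cells were grown in serum and loosely attached cells were shaken off, and the study's methods describe nearly all cells as positive for the astrocyte protein GFAP. Total counts per library ranged from 14920561 to 18956038. RGCC counts were 80 and 94 in WT control, 215 and 362 in WT TGF-β, 61 and 28 in KO control and 64 and 26 in KO TGF-β, so reads of the targeted gene remained in the KO libraries and the KO libraries lay below the WT libraries in both conditions. Because RNA was taken from whole cultures, fewer cells of a type and less RNA per cell cannot be told apart in any result below.

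To show what the members share in sequence, the letters GTTGCC were searched on both strands of promoter windows of 300 bases, from 250 before to 50 after each start of transcription. These letters form the core of the X-box, the element bound by RFX factors. RefSeq promoters (GRCm38.p6) were matched for 33 of the 42 members, the others being ARMC4, DNAAF1, FOXJ1, LRRC6, NME5, RSPH1, RSPH4A, TPPP3 and WDR78. The letters occurred in 22 of these 33 (66.7%), against 14.1% of all 27025 genes with a promoter and 12.5% of all 32851 promoters. Of the 28 occurrences in member promoters, 26 lay within 120 bases of the start. Windows of at most 30 bases are printed for members whose levels are described below, with GTTGCC in capitals and read 5′ to 3′ on the strand that spells it.
CCNO: acccgggctgcgGTTGCCacggtgacgaca
RFX3: gttatagcaaccGTTGCCttgtgaatcaag
DNAIC2: cggagtttaccaGTTGCCtagcaaccctgg
ZMYND10: gggcaGTTGCCaagccgttgaag
LRRC23: cgtcccgcccctGTTGCCataacaacaata
TEKT1: tgcgtccgtccgGTTGCCatagagaccgca
DYNLRB2: acttcctgcctgGTTGCCtagcaacggggg
CCDC113: accctgaggcgcGTTGCCtagacaactgaa
PIFO: tctgtgtactacGTTGCCaagggaacggaa
IFT172: tgtcgcactcacGTTGCCtgtgcgtcagcg
The windows lie at chr13:112987571-112987600 on the plus strand for CCNO, chr19:28011118-28011147 on the minus strand for RFX3 and chr11:114727381-114727410 on the minus strand for DNAIC2. That of ZMYND10 is chr9:107547331-107547353 on the minus strand, cut short by the edge of the promoter window. LRRC23 has its window at chr6:124779749-124779778 and TEKT1 at chr11:72361880-72361909, both on the minus strand. The positions are chr8:116504952-116504981, plus strand, for DYNLRB2, chr8:95534082-95534111, minus strand, for CCDC113, and chr3:106001492-106001521, plus strand, for PIFO. For the transport gene IFT172 it is chr5:31291097-31291126 on the minus strand.

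A longer form, GTTGCCAT, which contains the shorter one, occurred in the promoters of IQCG, LRRC23, MLF1 and TEKT1, 4 of 33 members, against 1.54% of all genes. The forkhead letters GTAAACA, the core bound by FOXJ1 and its relatives, occurred in 2 of 33, AK7 and MLF1, against 4.05% of all genes. The shorter letters stood in 9 of 13 matched members that met the threshold described below after TGF-β in either genotype and in 13 of 20 that did not. Related lists were compiled from general knowledge, with earlier results of these data known. In them the shorter letters were found in 22 of 57 other motile axoneme genes (38.6%). They stood in 17 of 45 genes of intraflagellar transport and the primary cilium (37.8%) and in 0 of 6 genes of Hedgehog signalling. A match of letters is a description of the window and not evidence of binding.

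After TGF-β, 41 of the 42 members had a lower fitted level in WT and 39 had a lower one in KO astrocytes. The median log2 fold change over the members was -0.625 in WT and -0.546 in KO, against -0.005 and 0.003 over all 13509 genes tested. Summed over the members, CPM (read counts scaled to a common library total) were 1270 and 1440 in WT control and 965 and 891 in WT TGF-β, and 1340 and 1560 in KO control and 1010 and 1050 in KO TGF-β. The 2 treated libraries of each genotype lay below its 2 control libraries, and FOXJ1 and TPPP3 alone made up between 29.8 and 34.7% of the sum. A gene was counted as past the threshold when its log2 fold change was 0.6 or more in size and its adjusted p lay under 0.05 (edgeR's quasi-likelihood test, Benjamini-Hochberg adjustment). By this threshold 18 members were lower in WT, where 5.65% of all genes were, and 11 in KO, where 4.93% were. No member was past it as higher, where 7.72% of all genes were in WT and 6.61% in KO. Since the list was drawn up with such falls known, these counts are a description.

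**Figure D1:**
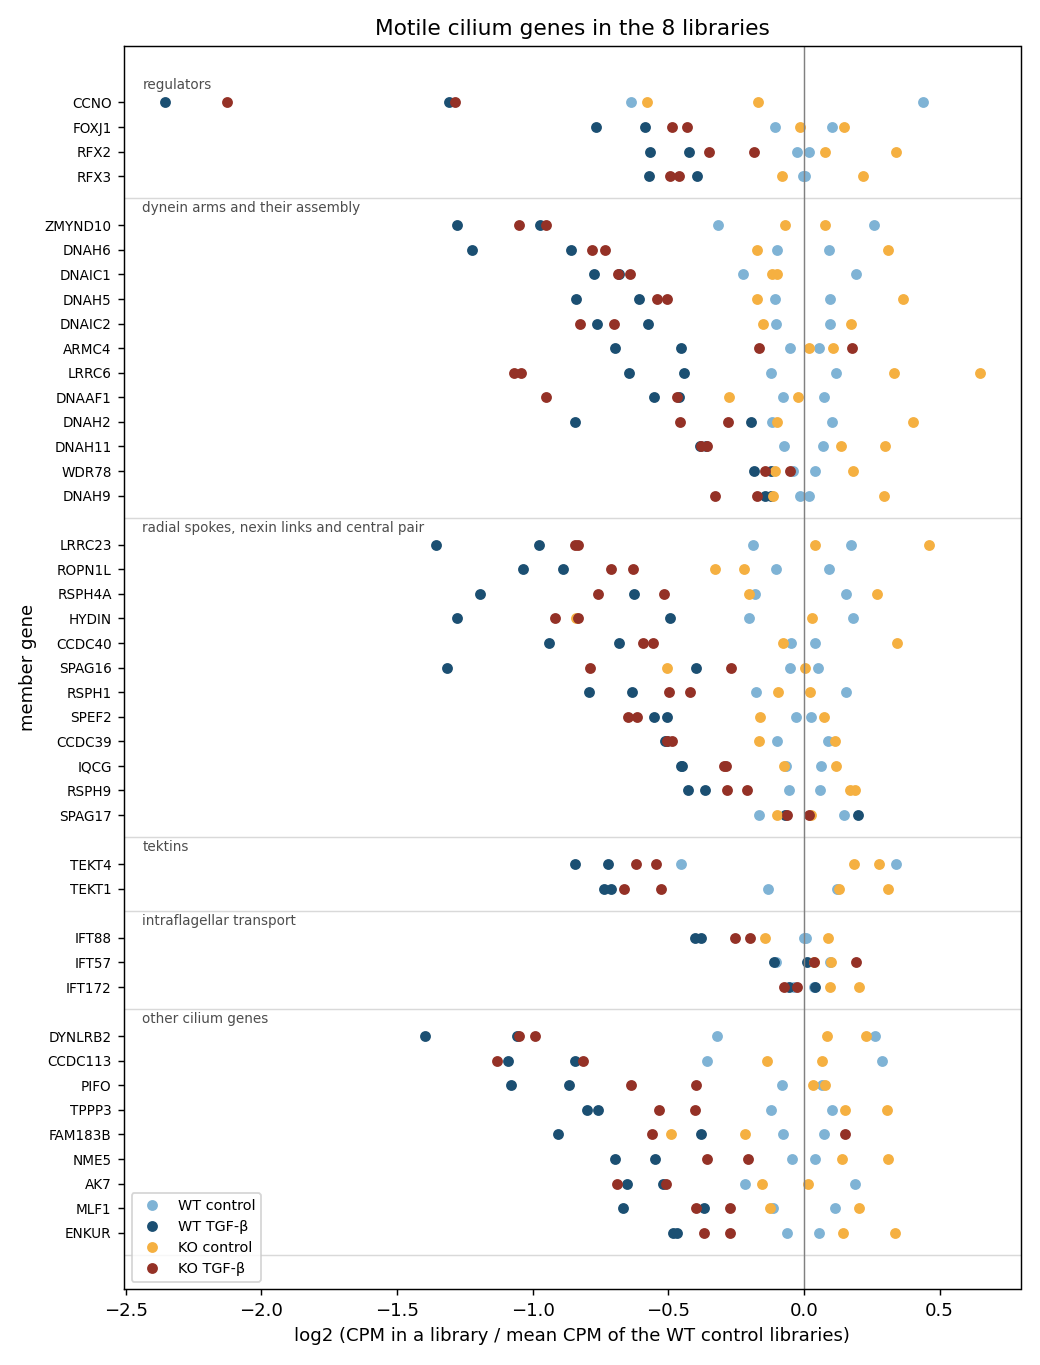
Each row is a member and each point a library, with the x axis giving the log2 ratio of its CPM to the mean of the WT control libraries and colours marking the 4 groups (n = 2 each). The dark points of the TGF-β libraries lie to the left of the light control points for most members, while those of IFT57 and SPAG17 lie among them in both genotypes and those of IFT172 in WT.

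The treated libraries did not overlap the control libraries and lay below them for 39 members in WT, where 33.7% of all genes did so, and for 35 in KO, where 32.9% did. IFT57, IFT172 and SPAG17 were the exceptions in WT. In KO, ARMC4, FAM183B, HYDIN, IFT57, SPAG16, SPAG17 and WDR78 overlapped. Leaving out WT control replicate 2 lowered the WT count past the threshold from 18 to 10, and leaving out WT TGF-β replicate 2 lowered it to 11. In KO the count went from 11 to 5 without KO control replicate 2, to 7 without KO TGF-β replicate 1 and to 20 without KO control replicate 1. DYNLRB2, LRRC23, TEKT1 and TPPP3 were past the threshold in both genotypes under each alternative that was run.

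The regulators stood lower after TGF-β in each library of both genotypes. FOXJ1 (ENSMUSG00000034227, chr11:116330704-116335399, minus strand, GRCm38) had 295 and 342 CPM in WT control, 212 and 187 in WT TGF-β, 315 and 352 in KO control and 227 and 236 in KO TGF-β. The fitted change on the log2 scale was -0.68 ± 0.10 (SE) in WT and -0.53 ± 0.10 in KO, and only the WT value was past the threshold. The KO value was past it with upper quartile scaling, on log2(FPKM + 1) and on log2(FPKM + 0.1). On these scales the KO median of all genes also lay lower, at -0.08, -0.06 and -0.109, against 0.003 in the main analysis. The WT call was lost without WT control replicate 2. RFX2 had 37.1 and 36.0 CPM in WT control, 27.3 and 24.7 in WT TGF-β, 38.6 and 46.3 in KO control and 28.7 and 32.2 in KO TGF-β. RFX3, which also serves primary cilia, had 41.5 and 41.3 in WT control, 31.5 and 27.9 in WT TGF-β, 39.1 and 48.2 in KO control and 29.4 and 30.1 in KO TGF-β. Neither RFX gene passed the fold limit, with -0.49 ± 0.11 in WT and -0.48 ± 0.10 in KO for RFX2 and -0.48 ± 0.11 and -0.56 ± 0.11 for RFX3.

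CCNO (ENSMUSG00000042417, chr13:112987802-112990777, plus strand) had the lowest fold change of the members in WT, -1.72 ± 0.46, with -1.29 ± 0.47 in KO. Its CPM were 4.84 and 10.2 in WT control, 3.04 and 1.47 in WT TGF-β, 5.04 and 6.69 in KO control and 3.08 and 1.72 in KO TGF-β. The replicates of CCNO differed by more than those of the other regulators, and the numbers rest on 23 to 171 counts per library. Its WT call was lost without WT control replicate 2, without WT TGF-β replicate 2 and in a fit to the 4 WT libraries alone.

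Genes that act with these regulators but are not members were read from a list of the multiciliation programme. The list was chosen with earlier results of these data known, and 14 of its genes were tested. In WT 6 of the 14 were lower past the threshold (GMNC, MYB, TRP73, DEUP1, CCNA1 and RFX4) and in KO 3 were (GMNC, TRP73 and CCNA1), and none was higher. Over all genes 5.65% were lower in WT and 4.93% in KO. Treated libraries lay below controls without overlap for 10 of the 14 in each genotype (33.7% of all genes in WT, 32.9% in KO). They lay above for 1 in WT and 3 in KO, against 4787 and 4635 of all 13509 genes. GMNC, which starts the multiciliated fate, had 23.7 and 26.3 CPM in WT control, 14.6 and 11.9 in WT TGF-β, 25.1 and 33.4 in KO control and 14.8 and 17.9 in KO TGF-β. MYB, a transcription factor of centriole amplification, had 5.93 and 12.4, then 4.15 and 1.79 in WT, and 5.81 and 8.17, then 3.55 and 2.25 in KO. DEUP1, a scaffold of the structures on which centrioles multiply, had 5.03 and 11.0, then 3.65 and 1.60 in WT, and 5.10 and 7.16, then 3.48 and 2.11 in KO. The E2F4, E2F5 and TFDP1 genes, whose products also act in the ordinary cell cycle, had log2 fold changes between -0.19 and 0.29 and none was past the threshold, with E2F5 and TFDP1 changing sign under other scalings. The median over the 14 genes was -0.783 in WT and -0.717 in KO. RFX4, MYB and DEUP1 were past the threshold in KO as well in some alternatives. These included DESeq2 and a fit to the 4 KO libraries alone. Without WT control replicate 2 the WT calls of MYB, TRP73, DEUP1, CCNA1 and RFX4 were lost, and in KO the call of TRP73 was lost in 9 alternatives.

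**Figure D2:**
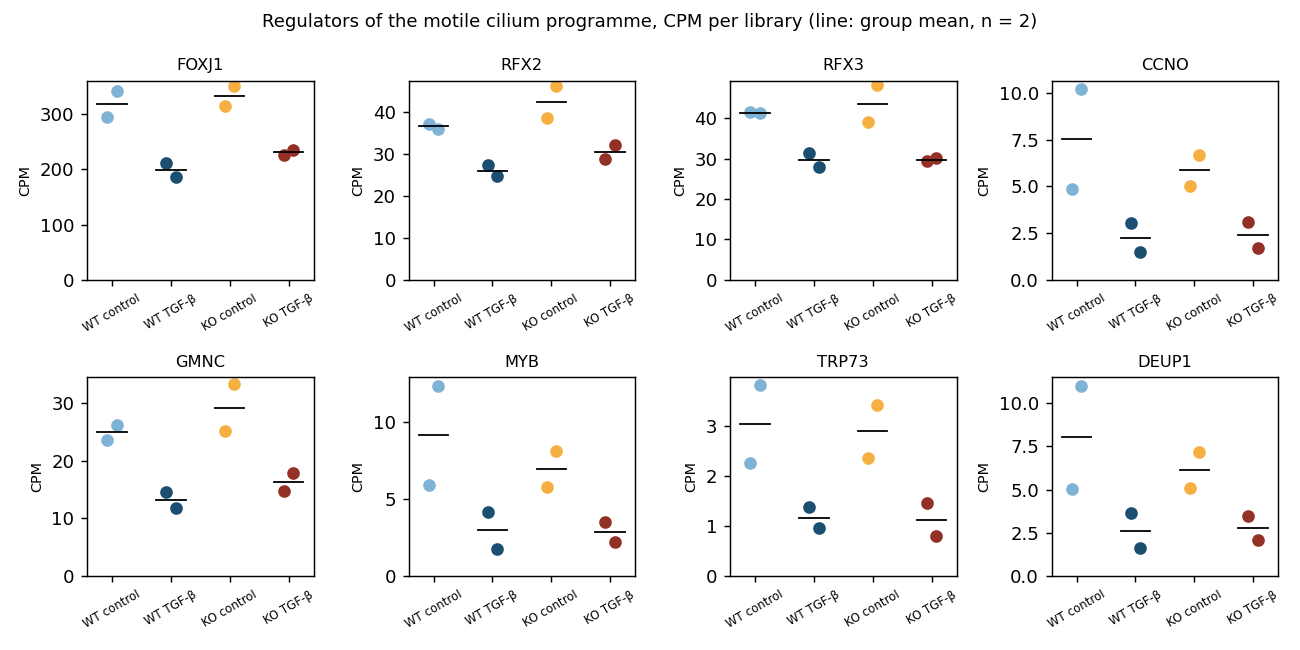
CPM per library (y axis from 0) of FOXJ1, RFX2, RFX3 and CCNO and of the programme genes GMNC, MYB, TRP73 and DEUP1, with points for libraries, a line for the group mean and n = 2 per group. In each panel both TGF-β libraries of a genotype lie below both of its control libraries.

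Dynein arms and their assembly factors made up 12 tested members, of which 5 were lower past the threshold in WT and 5 in KO. Of all genes 5.65% and 4.93% were. DNAH6, an inner arm heavy chain, had 28.1 and 32.1 CPM in WT control, 16.6 and 12.9 in WT TGF-β, 26.7 and 37.3 in KO control and 17.5 and 18.1 in KO TGF-β, with fold changes (log2) of -1.02 ± 0.18 for WT and -0.85 ± 0.18 for KO. The outer arm heavy chain DNAH5 stood lower, at 7.61 and 6.62, then 3.98 and 4.67 in WT, and 6.32 and 9.17, then 4.89 and 5.02 in KO. Its calls were among the least stable, lost in 7 alternatives in WT and in 12 in KO. The outer arm intermediate chain DNAIC1 had 5.09 and 6.80, then 3.48 and 3.71 in WT, and 5.49 and 5.56, then 3.82 and 3.70 in KO. Its partner DNAIC2 had 6.51 and 5.67, then 3.59 and 4.09 in WT, and 5.49 and 6.87, then 3.75 and 3.44 in KO. Both chains lay lower in all treated libraries. DNAIC1 was past the threshold in WT alone and DNAIC2 in both genotypes. The 2 WT calls were lost in 6 alternatives each, and the DNAIC2 call in KO was lost in 5. In KO, DNAIC1 was past the threshold in 2 alternatives. DNAH9, another outer arm heavy chain of motile cilia, went from 39.5 and 38.6 to 35.3 and 35.9 CPM in WT. In KO it went from 36.0 and 47.9 to 31.1 and 34.6. Its fold changes of -0.13 ± 0.13 and -0.36 ± 0.13 were not past the threshold. DNAH11, also of the outer arm, had -0.37 ± 0.12 in WT and -0.59 ± 0.12 in KO and was not past the fold limit.

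ZMYND10, needed to assemble dynein arms in the cytoplasm, had 10.2 and 15.2 CPM in WT control, 6.47 and 5.24 in WT TGF-β, 12.1 and 13.4 in KO control and 6.57 and 6.14 in KO TGF-β. It had the lowest fold change of the dynein group in WT, -1.11 ± 0.21, with -1.004 ± 0.21 in KO. LRRC6 (ENSMUSG00000022375, chr15:66379858-66500910, minus strand), another assembly factor, was the single member past the threshold in KO and not in WT. It had 2.26 and 1.91 CPM, then 1.33 and 1.53 in WT, and 2.62 and 3.26, then 1.01 and 0.991 in KO, which are 15 to 55 counts per library. The fold change was -0.54 ± 0.24 in WT and -1.55 ± 0.25 in KO, but the difference between them did not pass the interaction test (log2 difference -1.01 ± 0.35, adjusted p = 1 in edgeR). In FPKM the LRRC6 means were 0.873 ± 0.186 (SD, n = 2) and 0.506 ± 0.083 in WT and 0.978 ± 0.168 and 0.505 ± 0.032 in KO, and the control and TGF-β libraries did not overlap in either genotype. Reads of DNAAF1 are less certain, because 20.7% of its exonic bases are shared with TAF1C on the opposite strand and the libraries are not stranded.

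Radial spokes, nexin links and the central pair were represented by 12 tested members, with 5 lower past the threshold in WT and 2 in KO. Among all genes the shares were 5.65% and 4.93%. LRRC23 (ENSMUSG00000030125, chr6:124769863-124779727, minus strand), a radial spoke protein, had 21.4 and 27.5 CPM in WT control, 12.4 and 9.53 in WT TGF-β, 25.1 and 33.6 in KO control and 13.6 and 13.7 in KO TGF-β. Its log2 fold change, -1.15 ± 0.19 in WT and -1.11 ± 0.19 in KO, was the lowest of this group in both genotypes. CCDC40, which sets the spacing of spokes and inner arms, had 37.0 and 39.3, then 23.8 and 19.9 in WT, and 36.2 and 48.4, then 25.3 and 26.0 in KO, and was the other member of the group past the threshold in KO. The spoke head genes RSPH1 and RSPH4A were past it in WT only, with RSPH1 at 27.6 and 34.7, then 20.1 and 18 in WT, and 29.2 and 31.7, then 22.1 and 23.3 in KO. RSPH4A had 30.9 and 39.0, then 22.7 and 15.3 in WT, and 30.4 and 42.2, then 20.7 and 24.5 in KO. Its KO fold change of -0.68 ± 0.22 passed the threshold in 13 of the alternatives, and its WT call was lost in 2.

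ROPN1L, a radial spoke stalk protein, had 4.64 and 5.31 CPM in WT control, 2.43 and 2.69 in WT TGF-β, 4.27 and 3.97 in KO control and 3.22 and 3.04 in KO TGF-β. Its fold change was -0.96 ± 0.17 in WT and -0.40 ± 0.17 in KO, and the interaction had an adjusted p of 1 in edgeR (log2 difference 0.57 ± 0.24). SPAG17, a central pair gene, was the single member with a positive value in WT, 0.07 ± 0.18, whose sign changed under some alternatives. HYDIN, also of the central pair, was measured on 22 to 65 counts per library, with -0.82 ± 0.35 in WT and -0.54 ± 0.37 in KO. Of the exonic bases of IQCG, a nexin link gene, 48.1% are shared with LRCH3 on the opposite strand, so its values (-0.45 ± 0.08 and -0.32 ± 0.08) may hold reads of LRCH3. Among the tektins, TEKT1 had 12.6 and 15 CPM, then 8.29 and 8.44 in WT, and 15.1 and 17.1, then 9.58 and 8.72 in KO, with fold changes of -0.72 ± 0.13 and -0.82 ± 0.13. TEKT4 reached -0.78 ± 0.29 and -0.81 ± 0.28 at 1.47 to 3.34 CPM and was not past the threshold.

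Intraflagellar transport had the medians closest to zero among the 6 roles, -0.049 in WT and -0.2 in KO, and none of its 3 members was past the threshold. IFT172 had 69.3 and 72.8 CPM in WT control, 73.1 and 68.4 in WT TGF-β, 75.9 and 81.7 in KO control and 67.5 and 69.8 in KO TGF-β. For IFT57 the values were 52.0 and 59.6, then 56.2 and 51.7 in WT, and 57.2 and 59.8, then 63.7 and 57.3 in KO, and the groups overlapped in both genotypes. IFT88 fell from 23.4 and 23.5 to 17.7 and 18 in WT, a log2 fold change of -0.39 ± 0.09 that did not reach the fold limit. Over the list of 53 further genes of intraflagellar transport and the primary cilium, the medians were -0.199 in WT and -0.136 in KO. Only 1 was past the threshold as lower in WT (BBS4, -0.71 ± 0.09) and none in KO. Smaller falls were common, with lower fitted levels for 46 of the 53 in WT and 44 in KO. Of all 13509 genes, 6842 and 6693 had lower levels. Treated libraries lay below controls without overlap for 38 in WT and 32 in KO (33.7% and 32.9% of all genes). Of 65 further axoneme and dynein assembly genes that are not members, 25 were lower past the threshold in WT and 20 in KO. Over all genes the shares were 5.65% in WT and 4.93% in KO. None of the 65 was higher in either genotype, and the medians were -0.543 and -0.505. The lists in this paragraph were chosen with earlier results of these data known, so their counts are a description and not a test. Among the 7 tested genes of Hedgehog signalling, which is read out through the primary cilium, GLI2 was past the threshold and higher in both genotypes (0.62 ± 0.10 and 0.70 ± 0.10) and none was lower, but the GLI2 call was lost in 5 alternatives in WT and 2 in KO.

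**Figure D3:**
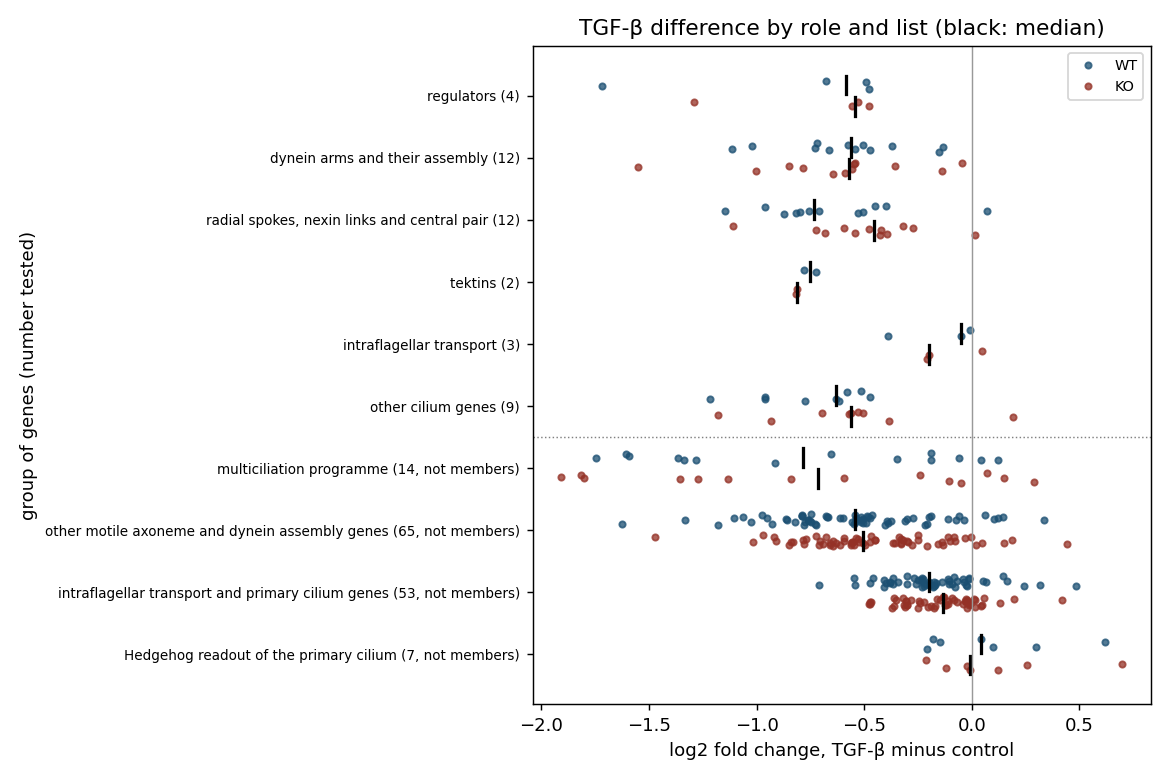
Log2 fold change after TGF-β (x axis) of each gene, in WT and in KO, for the 6 roles of the members and, under the dotted line, for 4 lists of genes that are not members, with black bars for medians. Points of the motile groups lie mostly left of zero, and those of transport and the primary cilium lie closer to it.

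Of the 9 remaining members, 5 were lower past the threshold in WT and 3 in KO, where 5.65% and 4.93% of all genes were. DYNLRB2 (ENSMUSG00000034467, chr8:116504974-116515915, plus strand), a dynein light chain, had 11.6 and 17.4 CPM in WT control, 6.97 and 5.50 in WT TGF-β, 15.4 and 17.0 in KO control and 7.30 and 7 in KO TGF-β. Its fold change was -1.22 ± 0.21 in WT and -1.18 ± 0.21 in KO, the second lowest of the members in WT. TPPP3 (ENSMUSG00000014846, chr8:105467493-105471526, minus strand), which promotes tubulin polymerisation, had 125 and 146 CPM, then 80.3 and 78.2 in WT, and 151 and 168, then 94.0 and 103 in KO, with -0.78 ± 0.09 and -0.69 ± 0.09. CCDC113, an axonemal coiled-coil protein, had 5.42 and 8.48, then 3.87 and 3.26 in WT, and 6.32 and 7.28, then 3.95 and 3.17 in KO. It was past the threshold in both genotypes, and each call was lost in 4 alternatives. PIFO, a protein of the ciliary base, had 12 and 13.3, then 6.97 and 6.01 in WT, and 13.0 and 13.4, then 8.17 and 9.64 in KO. Its fold changes were -0.96 ± 0.13 and -0.57 ± 0.13, and the KO value was past the threshold only in some alternatives. These included upper quartile scaling, log2(FPKM + 1) and log2(FPKM + 0.1), on which the KO median of all genes was -0.08, -0.06 and -0.109. NME5, a nucleoside diphosphate kinase homologue of the axoneme, had 33.7 and 35.7, then 23.7 and 21.4 in WT, and 38.2 and 43.0, then 27.1 and 30.1 in KO. It was past the threshold in WT alone, and also in KO on log2(FPKM + 1) and log2(FPKM + 0.1). The NME5 call in WT was lost in 2 alternatives. ENKUR, a microtubule inner protein, had 30.1 and 32.6, then 22.7 and 22.5 in WT, and 34.7 and 39.6, then 24.3 and 26.0 in KO, and was not past the fold limit (-0.47 ± 0.09 and -0.56 ± 0.09). FAM183B was the exception in KO, with 1.79 and 1.48 CPM in the control and 1.41 and 2.31 in the TGF-β libraries, a fold change of 0.19 ± 0.32 that turned to -0.23 without KO TGF-β replicate 2 and was also below zero in FPKM.

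Levels can be set beside each other between genes only per length. In FPKM, the 5 members with the highest mean over the 8 libraries were TPPP3 (115), FOXJ1 (95.6), NME5 (34.4), DYNLRB2 (21.4) and ENKUR (20.3). The heavy chains of the dynein arms stood low, with means of 1.90 for DNAH9, 1.25 for DNAH6 and 0.306 for DNAH5, and HYDIN had 0.105. TPPP3 had 138 ± 13.7 FPKM (SD, n = 2) in WT control and 76.3 ± 4.86 in WT TGF-β, and FOXJ1 had 115 ± 11.2 and 66.8 ± 7.98. In KO control TPPP3 had 161 ± 11.4 and FOXJ1 123 ± 10.1, and TPPP3 lay above FOXJ1 without overlap in each of the 4 groups. DYNLRB2 and ENKUR changed order, since DYNLRB2 stood higher in control (28.8 ± 6.44 against 22.3 ± 1.51 in WT, 31.7 ± 4.09 against 27.5 ± 1.73 in KO) and lower with TGF-β (12.1 ± 2.36 against 15 ± 0.762 in WT, 13 ± 1.96 against 16.5 ± 1.63 in KO). NME5 lay above both in each group. TEKT2, present in the FPKM table alone, had 0.615 and 0.551 in WT control and 0.639 and 0.578 in WT TGF-β, and 0.437 and 0.556 against 0.441 and 0.451 in KO. SPAG6 had at most 0.136 FPKM in any library.

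Taking both genotypes, 10 members were past the threshold as lower in each, 8 in WT alone, 1 in KO alone and 23 in neither. These classes were not counted over all genes, so they do not set the members apart. Taken singly, 5.65% of all genes were lower in WT and 4.93% in KO. The fitted fall was larger in WT for 28 members and in KO for 14, a split that was not stable. The median difference between the falls was 0.062 on the log2 scale. It turned to -0.043 without WT control replicate 2, -0.041 without KO control replicate 1, -0.005 without WT TGF-β replicate 2 and -0.003 on log2(FPKM + 1), and rose to 0.189 without WT control replicate 1 and 0.182 without KO control replicate 2. Whether the fall differed between the genotypes was asked by the interaction term, which none of the 42 members passed, nor did any of the 13509 genes (0%). At an unadjusted p under 0.05 the interaction took in LRRC6 and ROPN1L, 2 members, where 2.82% of all genes lay, and DESeq2 gave 0 members at that level. Both names were chosen after their values were seen.

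**Figure D4:**
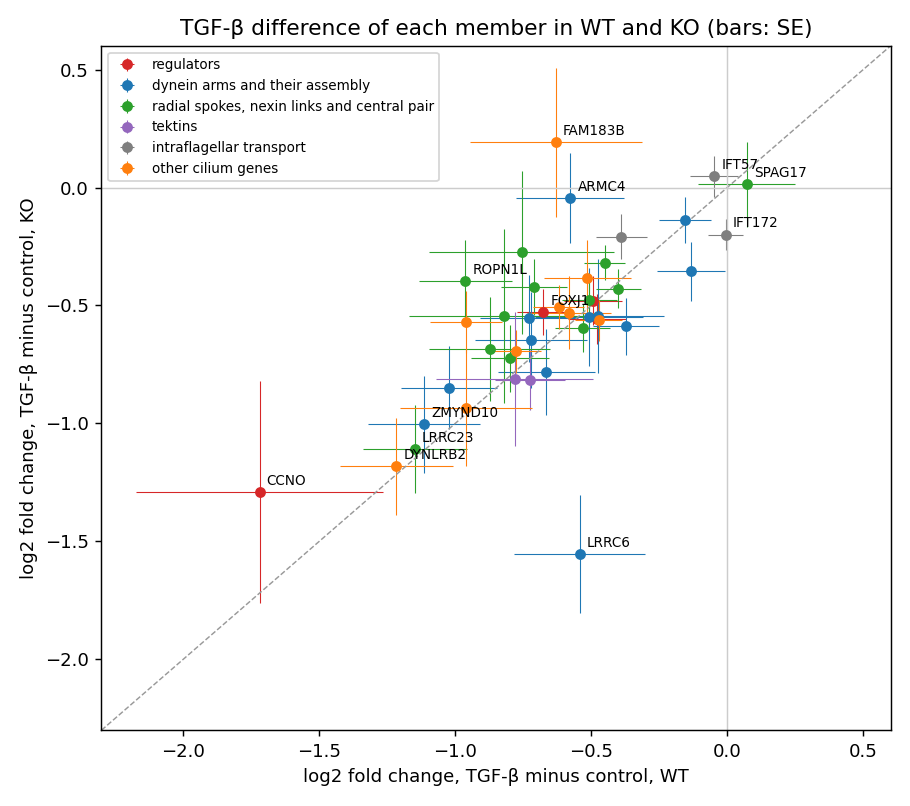
Log2 fold change after TGF-β in WT (x axis) and in KO (y axis) of each of the 42 members, coloured by role, with bars of 1 SE and a dashed line where both are equal. Most points lie near the line below zero, LRRC6 lies below it at -0.54 and -1.55, and FAM183B and ARMC4 lie above it.

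The genotypes were also compared directly, which asks whether loss of RGC-32 alone moved the cilium genes. Without TGF-β none of the 42 members passed the threshold between KO and WT, where 0.037% of all genes did, and the median log2 difference was 0.061. At an unadjusted p under 0.05, where 6.84% of all genes lay, there were 4 members, all higher in KO, namely ENKUR (0.25 ± 0.09), TPPP3 (0.23 ± 0.09), NME5 (0.23 ± 0.09) and IFT172 (0.15 ± 0.07). The lowest adjusted p among the members was 0.675 (edgeR), and DESeq2 gave 0 called members and 1 at the unadjusted level. The KO control libraries lay above the WT control libraries without overlap for 9 members, where 15.5% of all genes did so, and below them for ROPN1L and FAM183B, 2 members, where 17.4% did. Leaving out KO control replicate 1 moved the median to 0.172. It turned to -0.090 without KO control replicate 2 and to -0.024 without WT control replicate 1, so its sign was not stable. Some marker sums of other cells differed between the same libraries, with astrocyte markers at 4320 and 4560 CPM in WT control and 5020 and 5740 in KO control. Sums overlapped for microglia (1570 and 1320 in WT, 1560 and 1460 in KO) and neurons (305 and 316, 280 and 338). They also overlapped for the oligodendrocyte lineage (266 and 229, 262 and 221) and proliferation (342 and 376, 326 and 357). All 11 tested markers of meningeal fibroblasts were lower in KO (median log2 difference -0.361, sums of 5760 and 7230 CPM in WT and 4990 and 4870 in KO). The part of the astrocyte and fibroblast marker differences in those of the members was not tested.

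With TGF-β, again none of the members passed, where 0.0444% of all genes did, and the median difference was 0.157, with 32 of 42 members not below zero. At an unadjusted p under 0.05, where 11.7% of all genes lay, there were 4 members, all higher in KO. These were ARMC4, a docking factor of outer arms (0.59 ± 0.20), PIFO (0.45 ± 0.14), NME5 (0.34 ± 0.10) and TPPP3 (0.32 ± 0.09). The lowest adjusted p was 0.247 (edgeR), and DESeq2 gave 0 called members and 3 at the unadjusted level. The names in this and the preceding paragraph were chosen after their values were seen. The KO TGF-β libraries lay above the WT TGF-β libraries without overlap for 20 members, FOXJ1, RFX2, DYNLRB2 and TPPP3 among them, where 23.9% of all genes did so. DNAH9, LRRC6 and SPEF2, 3 members, lay below without overlap, where 22.4% of all genes did. Here the astrocyte markers summed to 3580 and 3440 CPM in WT TGF-β and 4250 and 4590 in KO TGF-β. The meningeal fibroblast markers summed to 10400 and 11900 in WT and 8200 and 8150 in KO, and proliferation markers to 359 and 318 and to 309 and 276. Sums for microglia, neurons and the oligodendrocyte lineage overlapped between genotypes. The part of such marker differences in those of the members was not tested.

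**Figure D5:**
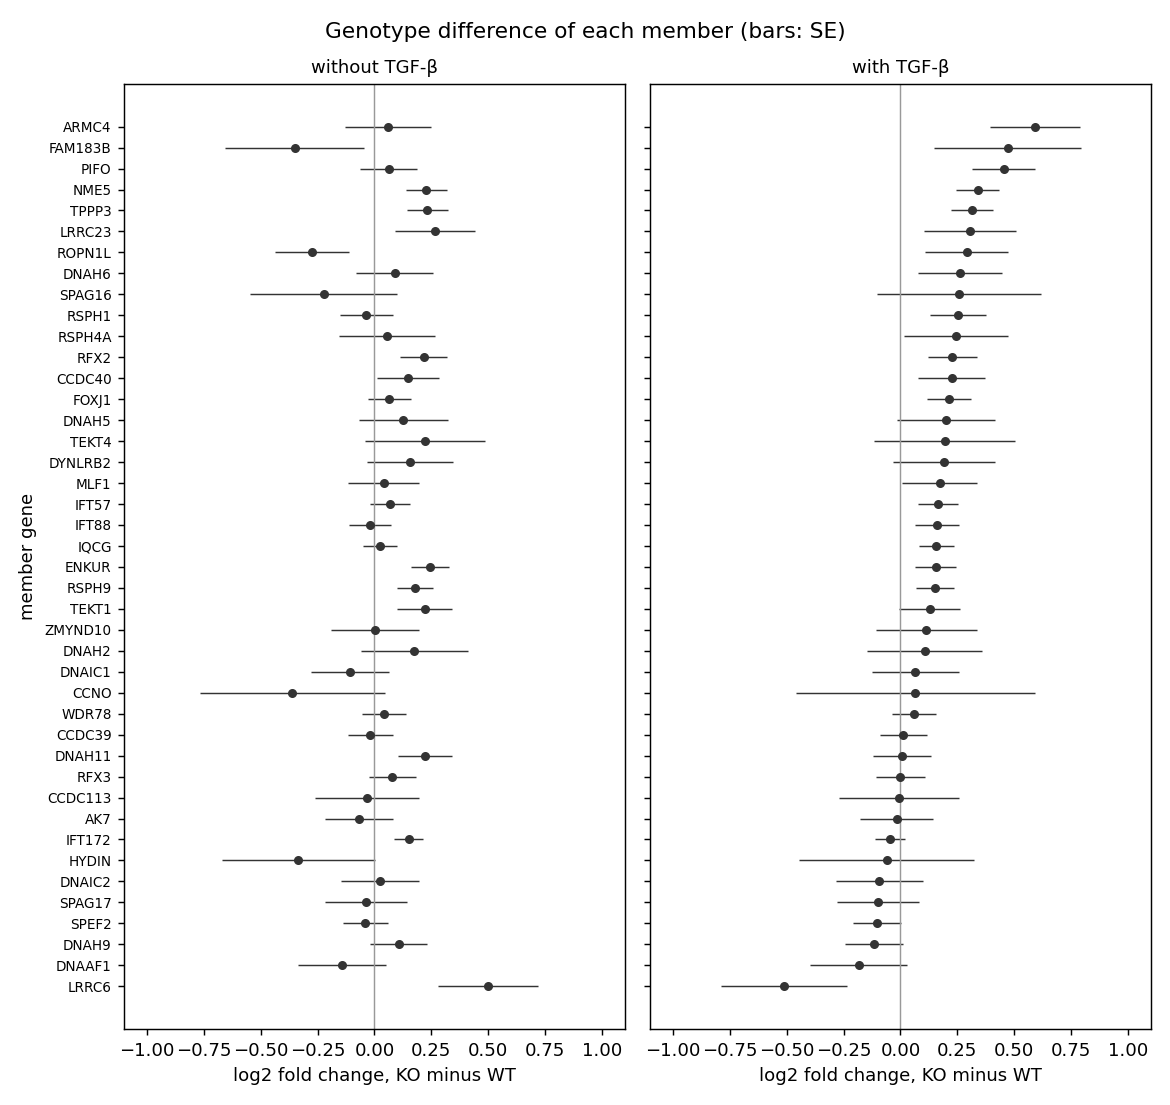
Log2 difference between KO and WT (x axis) of each member, without TGF-β on the left and with TGF-β on the right, in the order of the right panel, with bars of 1 SE from the fit to 8 libraries. Most points on the right lie above zero, with ARMC4 highest at 0.59 and LRRC6 lowest at -0.51 (0.002 on log2(FPKM + 0.1)), and no member passed the threshold in either panel.

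Cell type markers were read beside these results. Of 9 tested ependymal markers, 4 are members, and the other 5 were HDC, CCDC153, RARRES2, MIA and CD24A. Of these 5, 4 had negative fold changes in each genotype, with medians of -0.511 in WT and -0.36 in KO. Their summed CPM were 351 and 364 in WT control and 407 and 388 in WT TGF-β, and 356 and 383, then 494 and 508 in KO. The sum, in which CD24A weighs most, was thus higher in each treated library. HDC (-1.25 ± 0.26 in WT, -0.77 ± 0.25 in KO) and CCDC153 (-0.73 ± 0.21 and -0.76 ± 0.22) had falls like those of the members, with HDC past the threshold in WT alone and CCDC153 in both. CD24A, a surface protein of ependymal cells that other cells carry as well, stood higher in each treated library, from 295 and 302 to 368 and 345 CPM in WT and from 291 and 323 to 444 and 460 in KO. PROM1, which encodes the CD133 protein of ependymal cells and radial glia, was lower past the threshold in both genotypes (-0.77 ± 0.20 and -0.61 ± 0.19), although its KO call was lost in 10 alternatives. The CCDC153 call was lost in 7 alternatives in WT and 5 in KO. The 10 ependymal genes outside the axoneme had medians of -0.148 and -0.011, with 1 past the threshold as lower and 1 as higher (ANK3) in WT. Astrocyte markers summed to 4320 and 4560 CPM in WT control and 3580 and 3440 in WT TGF-β, and 5020 and 5740, then 4250 and 4590 in KO. The sum was thus lower in each treated library of a genotype than in its controls. Their median log2 fold changes were -0.36 in WT and -0.318 in KO, with 8 and 7 of 10 negative. SLC1A2 alone of the 10 was lower past the threshold in each genotype, where 5.65% and 4.93% of all genes were. Markers of meningeal fibroblasts summed to 4870 to 7230 CPM in control and 8150 to 11900 in TGF-β libraries, a sum in which collagen genes weigh most. Whether a change in the share of cell types took part in the falls of the cilium genes was not tested.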

How the data were processed

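RNA-seq of 8 libraries was analysed. Unstranded reads were aligned to mm10 by the authors (STAR, run through VIPER), who deposited raw counts per gene and Cufflinks FPKM (tools as named in the submitters' processing notes and the study's methods). Their deposited DESeq tables hold fold changes and p-values and were not used. Groups were taken from the sample labels. Counts were fitted with edgeR 4.0.16 (R 4.3.3; TMM scaling, filterByExpr, quasi-likelihood test, 4 group means, 4 residual degrees of freedom), which kept 13509 genes. CPM use TMM-scaled totals. Calls needed an absolute log2 fold change of 0.6 and a Benjamini-Hochberg adjusted p under 0.05. The SE of an edgeR fold change was worked back from its test. It is the size of the log2 fold change divided by the square root of the F statistic. Replicates of a group differed by more than counting noise (chi-square per degree of freedom 6.15 to 10.2). P-values measure the spread between these 2 libraries per group. Of the members, 18 had under 100 counts in at least one library. Alternatives were limma 3.58.1 (voom on counts, trend on log2 FPKM), DESeq2 1.42.0, other scalings and filters, and leaving out each library. The fit was tested on simulated data. Positions came from GENCODE M21 (GRCm38, the build mm10 names), and promoters from RefSeq. The members and lists were chosen with earlier results of these data known. Values per library are given for FOXJ1, RFX2, RFX3 and CCNO, for each member past the threshold in any contrast, and for the 5 members with the highest mean FPKM, and others may be named.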

Additional observations from a re-analysis of the deposited data

How the results depend on the processing

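The counts of members past the threshold as lower, 18 in WT and 11 in KO, took values of 10 to 19 (WT) and 5 to 20 (KO) when each library was left out in turn. With no limit on the fold change they were 29 and 24. In KO the count was 21 with upper quartile scaling and 26 on log2(FPKM + 0.1), a scale on which the median of all genes shifted to -0.110 in WT and -0.109 in KO. Other alternatives gave 15 to 27 in WT and 10 to 14 in KO. No member was past the threshold as higher, between genotypes or for the interaction under any alternative run. Signs changed for a few values, none of them past the threshold and most of them near zero. SPAG17 in WT was -0.015 with upper quartile scaling and -0.074 to 0.221 when libraries were left out, and in KO -0.070 with upper quartile scaling, -0.005 with at least 10 counts and -0.051 to 0.059 when libraries were left out. FAM183B in KO was -0.073 on log2(FPKM + 1), -0.102 on log2(FPKM + 0.1) and -0.232 to 0.503 when libraries were left out. TFDP1 in WT was -0.044 with upper quartile scaling, -0.112 and -0.115 on the FPKM scales and -0.014 to 0.083 when libraries were left out, and in KO -0.014, -0.034 and -0.035. E2F5 in KO was -0.063 and -0.068 on the FPKM scales. LRRC6 between genotypes with TGF-β was not near zero in the main analysis (-0.51 ± 0.28) but was 0.002 on log2(FPKM + 0.1). Nothing in the labels says that replicate numbers mark a shared litter or day. Deviations of same-numbered libraries correlated at -0.343 between control and TGF-β in WT and -0.348 in KO, but at 0.491 between genotypes in control and 0.253 with TGF-β, so whether the numbers pair libraries across genotypes is unsettled. With a replicate block the counts were 17 and 10, and between genotypes still 0 of the members. With the crossed pairing, chosen after seeing the data, they were 20 and 14.

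Over all genes, 57.8% of WT calls and 57.3% of KO calls were higher, against 44.8% and 45.5% with upper quartile scaling, 47.3% and 44.7% on log2(FPKM + 1) and 38.5% and 37.1% on log2(FPKM + 0.1). On log2(FPKM + 1) there were 508 higher calls in WT and 449 in KO (1043 and 893 in the main analysis), and on log2(FPKM + 0.1) there were 1257 and 1243 lower calls (763 and 666), with 18644 genes tested. Between genotypes, DESeq2 called 6 genes higher and 7 lower without TGF-β (4 and 1 in edgeR) and 12 and 22 with it (3 and 3). Depth limits the low members most, 10 of which had under 50 counts in at least one library, among them LRRC6, HYDIN and CCNO.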

Other observations

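The replicates of the control groups did not stand at the same level of cilium genes. In WT control, replicate 2 was above replicate 1 for 35 of 42 members (51.4% of all genes), with a median log2 ratio of 0.171, and in KO control for 37 of 42 (49.9% of all genes), with a median of 0.198. In the TGF-β groups, replicate 2 was above replicate 1 for 14 members in WT and 25 in KO, with medians of -0.123 and 0.040. These medians are smaller in size than the median change after TGF-β in either genotype.

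CCNO lies on chromosome 13 beside MCIDAS, which begins 3067 bases after its end, and CDC20B, a further 34716 bases on, both of which also act in multiciliated cells. MCIDAS had 30 and 52 counts in WT control, 19 and 16 in WT TGF-β, 21 and 45 in KO control and 16 and 1 in KO TGF-β. CDC20B followed the same order, with 1.29 and 2.45 CPM, then 0.829 and 0.639 in WT, and 1.02 and 2.01, then 0.804 and 0.0661 in KO. Neither passed the threshold in either genotype.

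Some genes used as markers of the choroid plexus, another epithelium of the ventricles, were lower after TGF-β. KCNJ13, a potassium channel, had 5.16 and 4.77 CPM in WT control and 0.498 and 0.831 in WT TGF-β, and 5.55 and 6.16 against 0.737 and 0.528 in KO. The water channel gene AQP1 had 45.2 and 55.1 CPM against 13.3 and 9.02 in WT, and 36.8 and 42.0 against 16.5 and 7.86 in KO. Of 8 tested markers 4 were lower past the threshold in both genotypes (KCNJ13, AQP1, SOSTDC1 and ENPP2). Taken singly by genotype, 5.65% of all genes were lower in WT and 4.93% in KO. The markers were chosen with earlier results of these data known, so the count is a description. TTR, the defining transcript of that epithelium, had between 0 and 3.67 CPM, and CLDN2 had positive fold changes that did not pass.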
